A study of Mus musculus with 38 samples.

Results

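The natriuretic peptide pathway was examined through 7 genes measured in left ventricle homogenates: the peptides Nppa and Nppb, the convertases Corin and Furin, and the receptors Npr1, Npr2 and Npr3. They were chosen by name out of 29564 genes in the deposited tables, with earlier results of these data known. All 7 passed the filter on low counts that left 13765 genes for testing. RNA-seq libraries came from 38 mice, 1 library per mouse, all wild type on a C57BL6 background. Healthy controls on vehicle formed the non_failing group (n = 8). The other 3 groups carried a model of HFpEF, heart failure in which the ejection fraction is preserved, made by a high-fat diet together with L-NAME. Of these, HFpEF+Veh received vehicle (n = 8), HFpEF+TYA-018 received TYA-018, which inhibits the deacetylase HDAC6 (n = 11), and HFpEF+SGLT2i received empagliflozin, which inhibits the renal glucose transporter SGLT2 (n = 11). L-NAME blocks nitric oxide synthases, so it acts on the other arm of cGMP signalling as well as on blood pressure. The sample labels give female mice, whereas the methods of the study describe male mice, and age is not given in the labels.

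Natriuretic peptides are hormones that the heart releases when its walls are stretched. Nppa encodes the precursor of atrial natriuretic peptide (ANP), which is made mainly in the atria of the adult heart, and Nppb encodes the precursor of B-type natriuretic peptide (BNP), a clinical marker of ventricular load. Corin is a membrane protease of cardiomyocytes that cleaves the ANP precursor, and furin is a widely expressed convertase that cleaves the BNP precursor. Npr1 is the guanylyl cyclase receptor for ANP and BNP and raises cGMP in its target cells, Npr2 is the related receptor for C-type natriuretic peptide, and Npr3 removes the peptides from the circulation.

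Libraries held 21451631 to 59280407 counts, and the members were well covered, from 218 counts in the lowest library for Npr3 to 16487 in the highest for Nppb. The vehicle library V2523 stood apart from the rest. Its 8 hepatocyte markers, led by albumin, summed to 1041 TPM, a length-corrected measure of transcript abundance scaled per library, against 2.33 to 29.2 TPM in the other 7 vehicle libraries and 19.5 to 268 TPM in non_failing. They reached 3.56 TPM with TYA-018 and 8.46 TPM with SGLT2i, so every non_failing library also stood above every treated library. Of the 8 markers, 8 were called lower with TYA-018 and 7 with SGLT2i than in non_failing, where 7.39% and 6.45% of all genes were called. In HFpEF+Veh against non_failing 0 were called by edgeR (3.15% of all genes), and 7 were called lower without V2523 (620 of 13801 genes). Against vehicle 8 were called lower under each drug, beside 1.93% (TYA-018) and 0.85% (SGLT2i) of all genes. Without V2523 these became 2 (Apoa1 and Serpina1c) and 0 by edgeR, in fits that called 196 and 2 of 13801 genes. The part of this in the results was not tested. The Nppb comparisons with vehicle, and some others that moved, are therefore also given without V2523. Sampling of the ventricle was checked with cell type markers. Ventricular cardiomyocyte markers such as Myl2 and Myh6 summed to between 17033 and 31716 TPM, whereas the 6 atrial markers summed to between 8.80 and 18.6 TPM in all 38 libraries. Of these, Kcnj3 made up most of the sum, while Sln stayed at or below 0.62 TPM, Myl7 at or below 3.13 TPM and Bmp10 at or below 0.26 TPM.

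Nppb and Nppa lie next to each other on the plus strand of chromosome 4 (GRCm38), Nppb at chr4:147985788-147987205 and Nppa at chr4:148000722-148002079, with 13516 bases between them. Nppa is overlapped by the antisense gene Gm13054 and Nppb by no annotated gene. Nppb was called between groups and Nppa was not, but a difference between these genes in their response was not tested. As a description, the 250 bases before each RefSeq start site (GRCm38.p6, plus strand) are shown here, at chr4:147985650-147985899 for Nppb and chr4:148000472-148000721 for Nppa. Capitals mark matches, searched on both strands, to the letters GATAA of GATA factors and to CATTCC, the M-CAT element bound by TEAD factors. They also mark AAGTG, known as a site of NKX2 factors. The TATA box was searched as TATAAA. The AP-1 site was searched as TGANTCA, and none of the matches overlap.
Nppb: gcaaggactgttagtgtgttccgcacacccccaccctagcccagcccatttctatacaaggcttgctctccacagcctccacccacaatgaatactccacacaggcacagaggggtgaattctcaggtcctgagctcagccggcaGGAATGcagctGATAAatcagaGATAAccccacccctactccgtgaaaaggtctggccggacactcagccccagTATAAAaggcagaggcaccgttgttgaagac
Nppa: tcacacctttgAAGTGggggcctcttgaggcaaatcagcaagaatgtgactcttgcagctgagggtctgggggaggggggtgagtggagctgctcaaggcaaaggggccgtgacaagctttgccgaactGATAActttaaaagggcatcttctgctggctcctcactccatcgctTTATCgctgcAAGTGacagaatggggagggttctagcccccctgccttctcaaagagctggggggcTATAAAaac

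Both windows held 2 GATA matches and 1 TATA match, and neither held an AP-1 match. For Nppb the GATA matches began 94 and 83 bases before the start and the TATA match 31 bases before it, and a match to the M-CAT letters on the minus strand began 105 bases before the start. Nppa had no M-CAT match in this window but 2 NKX2 matches, at 239 and 65 bases before the start, its GATA matches at 121 and 75 bases and its TATA match at 9 bases. Over 32536 distinct promoter windows of the same length, 22.5% held the GATA letters, 12.6% the M-CAT letters, 40.6% the NKX2 letters, 6.73% the AP-1 letters and 12.3% the TATA letters. In GENCODE the Nppb gene begins 112 bases upstream of the RefSeq start, so every Nppb match listed lies inside the gene as GENCODE annotates it. The match is to letters alone, and neither binding nor start sites were measured.

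The peptides were by far the most abundant members on the TPM scale, which is corrected for transcript length. Nppb averaged 290.1 TPM over all libraries and Nppa 117 TPM, followed by Corin at 27.0, Npr2 at 22.1, Furin at 12.2, Npr1 at 9.51 and Npr3 at 2.53 TPM. Nppb was above Nppa in 36 of 38 libraries, and both exceptions were non_failing hearts. Npr1 was above Npr3 in 38 of 38 libraries with no overlap of their ranges, and Nppa above Corin in 37 of 38. Npr2 exceeded Furin in 36 of 38 libraries, Corin exceeded Npr2 in 30 of 38 and Furin exceeded Npr1 in 30 of 38, each with overlapping ranges. In HFpEF+Veh alone, Corin and Npr2 had nearly the same mean, 25.4 ± 4.04 and 24.6 ± 4.66 TPM (SD, n = 8).

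Nppb was the only member called in any of the 6 comparisons. In non_failing hearts it ranged from 154 TPM through a median of 270.0 to 386 TPM, and in HFpEF+Veh from 325 through 404 to 609 TPM. HFpEF+TYA-018 ranged from 93.4 through 227 to 367 TPM and HFpEF+SGLT2i from 149 through 238 to 416 TPM. The vehicle hearts lay highest on average, with no pair of groups fully separated: 5 of 8 vehicle hearts exceeded the highest non_failing heart, 10 of 11 TYA-018 hearts lay below the lowest vehicle heart, and 8 of 11 SGLT2i hearts did so. Of the 8 vehicle hearts, 7 exceeded the highest TYA-018 heart but only 3 the highest SGLT2i heart. In bulk tissue, fewer cells of a type and less RNA per cell cannot be told apart.

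**Figure D1:**
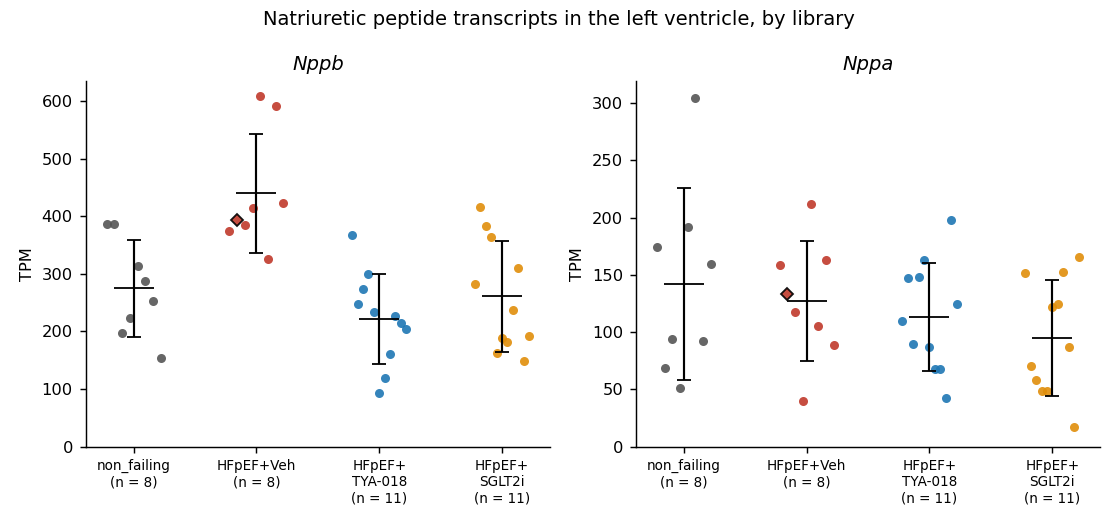
Nppb (left) and Nppa (right) in TPM for each of 38 libraries by group; points are mice, horizontal bars are group means, error bars are SD, and the diamond is the vehicle library V2523. For Nppb the vehicle mean was 439.5 TPM against 275 in non_failing, 222 with TYA-018 and 261 with SGLT2i, while the Nppa ranges of all 4 groups overlapped.

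Under TYA-018, Nppb fell relative to HFpEF+Veh by 0.86 on the log2 scale (SE 0.22), a fold of 0.55 with a 95% interval of 0.41 to 0.75, and the adjusted p of edgeR's quasi-likelihood test was 0.0300. All 11 of 11 treated hearts were below the vehicle mean. It was the 1 member of 7 called in this comparison, in which 1.93% of all tested genes were called. Without V2523 the fall was 0.89 with an edgeR adjusted p of 0.0404. The call was lost when vehicle V2528, the highest library at 609 TPM, or vehicle V2530 was left out, with edgeR adjusted p of 0.0741 and 0.0778, and also without TYA-018 V2551 (0.0509) or V2552 (0.0554).

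Empagliflozin hearts also had lower Nppb than vehicle, but the difference was not called. The log2 fold change was -0.69 (SE 0.22), a fold of 0.62 with a 95% interval of 0.45 to 0.84, with all 11 of 11 hearts below the vehicle mean, an unadjusted edgeR p of 0.00301 and an adjusted p of 0.156. No member was called in this comparison by edgeR, DESeq2 or limma on log2(TPM + 1). Of all genes, edgeR called 0.85% and DESeq2 117 of 13231. The limma fit called 0 of 13909 genes, so its lack of a call says nothing particular about the members. By edgeR, 1 of 7 members passed 0.05 before adjustment. Leaving V2523 out gave -0.73 for Nppb, with an edgeR adjusted p of 0.207. The drug groups share their vehicle controls, so the drugs were compared directly. Nppb in HFpEF+TYA-018 differed from HFpEF+SGLT2i by -0.16 on the log2 scale (SE 0.20), with an edgeR adjusted p of 0.823. The 95% interval of the fold, 0.67 to 1.19, includes lower as well as higher levels with TYA-018, so the test does not show that the drugs act alike on Nppb. No gene was called between the drugs by edgeR (0% of 13765, with 1821 at an unadjusted p under 0.05), while DESeq2 called 187. No member was called by either tool, and none had an unadjusted edgeR p under 0.05.

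Between the disease model and healthy hearts, Nppb was higher in HFpEF+Veh than in non_failing by 0.58 on the log2 scale (SE 0.24), a fold of 1.49 with a 95% interval of 1.07 to 2.09, in 8 of 8 hearts. The unadjusted edgeR p was 0.0202 and the adjusted p 0.207, so it was not called. No member was called in this comparison by edgeR, by DESeq2 or by limma on log2(TPM + 1), where 3.15% of all genes were called by edgeR, and Nppb was the 1 member with an unadjusted p under 0.05. Without V2523 the difference was 0.61 with an edgeR adjusted p of 0.164. Against non_failing, treated hearts were at -0.28 (SE 0.22) for TYA-018 and -0.12 (SE 0.22) for SGLT2i on the log2 scale, with edgeR adjusted p of 0.491 and 0.825. In those comparisons 7.39% and 6.45% of all genes were called and none of the 7 members, by edgeR, DESeq2 or limma. At an unadjusted p under 0.05 there were 0 and 1 members.

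Nppa was not called in any comparison. It ranged from 51.2 TPM through a median of 127 to 305 TPM in non_failing, from 40.1 through 125 to 212 TPM in HFpEF+Veh, from 42.5 through 109.6 to 198 TPM in HFpEF+TYA-018 and from 16.8 through 86.7 to 166 TPM in HFpEF+SGLT2i. The 4 ranges overlapped from 51.2 to 166 TPM, and the highest of all libraries was the non_failing heart V2508. The log2 fold change was -0.28 (SE 0.38) for HFpEF+Veh against non_failing and -0.02 (SE 0.35) for TYA-018 against vehicle, with 95% intervals of the fold of 0.48 to 1.41 and 0.60 to 1.62. Empagliflozin hearts were at -0.32 (SE 0.35) against vehicle and -0.60 (SE 0.35) against non_failing, and the lowest edgeR adjusted p of Nppa in the 6 comparisons was 0.357.

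The intervals of Nppa were wide, and so was the spread among hearts of the same group. Its SD within groups was 0.85 on the log2 CPM scale, larger than that of 99.8% of 1544 genes of similar abundance, and the highest library exceeded the lowest 18.2-fold. For Nppb the SD within groups was 0.51, at percentile 97.5 of 650 similar genes. Npr3 had an SD of 0.41, and the remaining members lay between 0.17 for Furin and 0.28 for Npr2. The ratio of Nppa to Nppb in TPM, given as a description, had a mean log2 of -1.11 ± 0.92 (SD, n = 8) in non_failing, -1.89 ± 0.67 (n = 8) in HFpEF+Veh, -1.004 ± 0.71 (n = 11) with TYA-018 and -1.62 ± 1.09 (n = 11) with SGLT2i, and without V2523 the vehicle mean was -1.94.

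The convertases Corin (chr5:72300025-72504473, minus strand) and Furin (chr7:80388585-80405436, minus strand) were not called in any comparison. Corin ranged from 19.4 to 37.6 TPM and Furin from 8.67 to 16.5 TPM over all libraries. Corin medians were 26.6 TPM in non_failing, 26.7 in HFpEF+Veh, 27.4 with TYA-018 and 27.8 with SGLT2i. Its largest difference was in HFpEF+SGLT2i against HFpEF+Veh, 0.23 on the log2 scale (SE 0.12, edgeR adjusted p 0.522), which was 0.17 without V2523, the vehicle library with the lowest Corin at 19.9 TPM. Furin medians were 12.8, 12.7, 11.3 and 11.9 TPM in the same order, and its log2 fold changes stayed between -0.08 and 0.09 in the 6 comparisons. Corin exceeded Furin in 38 of 38 libraries, with a mean log2 ratio in TPM between 1.02 ± 0.26 in HFpEF+Veh (SD, n = 8) and 1.19 ± 0.26 with TYA-018 (n = 11).

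**Figure D2:**
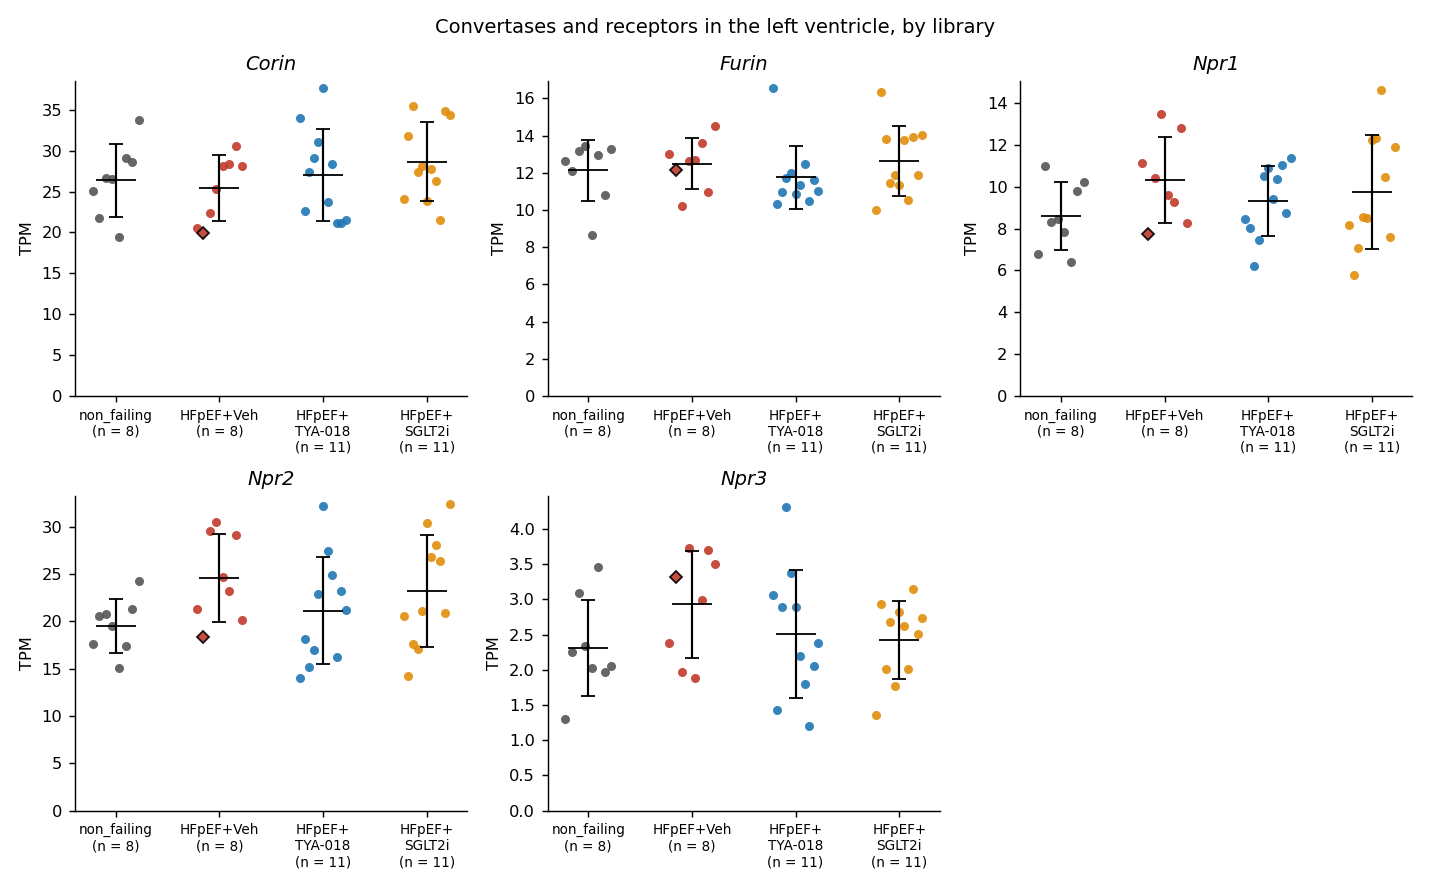
Corin, Furin, Npr1, Npr2 and Npr3 in TPM for each of 38 libraries by group, drawn as for the peptides, with each axis starting at 0 and V2523 as a diamond. The ranges of the 4 groups overlapped for each of these 5 genes.

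The receptors showed differences that were not called. Npr1 lies at chr3:90450591-90465866 on the minus strand, Npr2 at chr4:43631935-43651244 on the plus strand and Npr3 at chr15:11839896-11907287 on the minus strand. Npr1, Npr2, Furin and Corin are each overlapped by an annotated antisense gene, as is Nppa, and the share of reads from these partners was not tested. Npr1 ranged from 6.40 through a median of 8.38 to 11.0 TPM in non_failing, 7.73 through 9.997 to 13.5 TPM in HFpEF+Veh, 6.23 through 9.44 to 11.3 TPM with TYA-018 and 5.76 through 8.57 to 14.6 TPM with SGLT2i. Its log2 fold change of 0.13 (SE 0.13) for HFpEF+Veh against non_failing had an edgeR adjusted p of 0.675 and was 0.18 without V2523, which had the lowest Npr1 of the vehicle hearts.

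Npr2 ranged from 15.1 through 20.03 to 24.3 TPM in non_failing, 18.3 through 23.96 to 30.5 TPM in HFpEF+Veh, 14.1 through 21.2 to 32.2 TPM with TYA-018 and 14.3 through 21.1 to 32.4 TPM with SGLT2i. Of the receptors it had the largest difference, 0.33 (SE 0.13) for HFpEF+SGLT2i against non_failing, with an unadjusted edgeR p of 0.0140 and an adjusted p of 0.124. Against non_failing, HFpEF+Veh was at 0.26 (SE 0.14) with an adjusted p of 0.360, and at 0.32 with an adjusted p of 0.188 without V2523, again the lowest vehicle library. Against vehicle Npr2 was at -0.04 (SE 0.13) for TYA-018 and 0.07 (SE 0.13) for SGLT2i, and the latter turned to -0.08 with limma on log2(TPM + 1). Leaving out V2523 raised the vehicle mean from 24.6 to 25.5 TPM, so both differences from vehicle moved down. The means were 21.1 TPM with TYA-018 and 23.2 TPM with SGLT2i.

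Npr3, the clearance receptor, ranged from 1.30 through 2.16 to 3.46 TPM in non_failing, 1.89 through 3.16 to 3.72 TPM in HFpEF+Veh, 1.203 through 2.38 to 4.32 TPM with TYA-018 and 1.36 through 2.62 to 3.15 TPM with SGLT2i. The log2 fold changes were 0.27 (SE 0.19) for HFpEF+Veh against non_failing, -0.11 (SE 0.18) for TYA-018 and -0.22 (SE 0.18) for SGLT2i against vehicle, with edgeR adjusted p of 0.525, 0.783 and 0.719. The log2 ratio of Npr3 to Npr1 in TPM, as a description, averaged -1.93 ± 0.53 in non_failing, -1.84 ± 0.46 in HFpEF+Veh (SD, n = 8 each), -1.96 ± 0.69 with TYA-018 and -1.998 ± 0.52 with SGLT2i (n = 11 each).

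**Figure D3:**
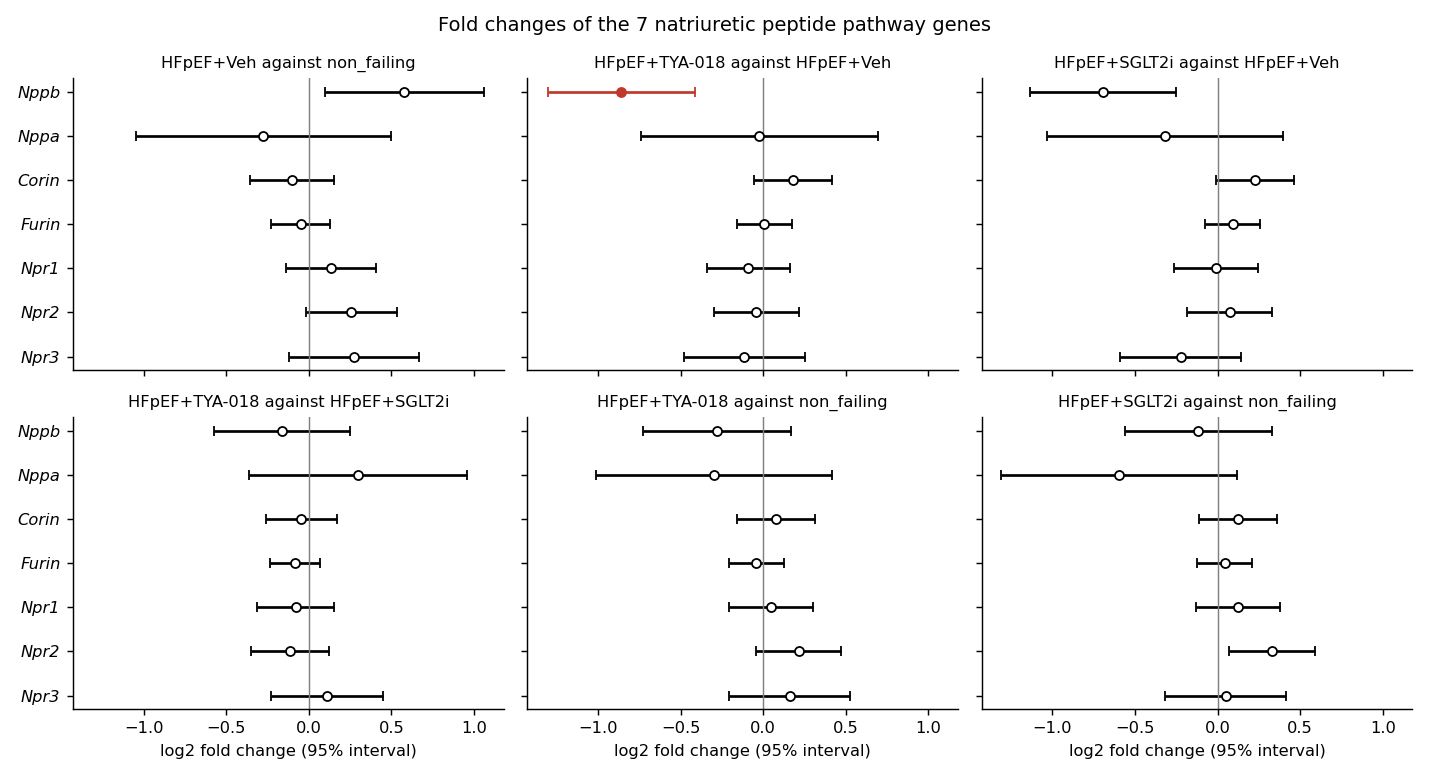
Log2 fold changes of the 7 genes in the 6 comparisons with 95% intervals from edgeR; the filled red point is the gene called at an adjusted p under 0.05, open points were not called. Nppb with TYA-018 against vehicle, at -0.86, is the filled point, and the intervals of Nppa are the widest in each panel.

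Transcript length per gene was compared next. It moves with the fragments a library holds and, for genes with more than 1 transcript, with isoform use. Nppa and Nppb have 1 annotated transcript each, and the other members have 5 to 10. Lengths were tested with limma on log2 effective length after centring each library, and no member was called in any of the 6 comparisons, with 8 of 42 tests at an unadjusted p under 0.05. Of these, 6 fell in the TYA-018 comparisons, in which 3195 (against vehicle), 3501 (against SGLT2i) and 1911 (against non_failing) of all 13765 genes were below that p. The lowest limma adjusted p was 0.0832, for Nppa in TYA-018 against vehicle, where its length was higher by 0.04 on the log2 scale (SE 0.01). Without centring that difference was 0.01 (SE 0.03). Differences of the members lay between -0.09 and 0.09, and between -0.14 and 0.14 without centring. Of all genes, 1.26% were called in TYA-018 against vehicle, 0.741% in TYA-018 against SGLT2i, 0.0145% in TYA-018 against non_failing and 0% in the other 3 comparisons, in which 588 to 1030 genes had an unadjusted p under 0.05. Without centring, the calls were 0 of 13765 genes in TYA-018 against vehicle, with 658 at an unadjusted p under 0.05, and 1451 in TYA-018 against SGLT2i. Without V2523, Nppa was called in TYA-018 against vehicle, at 0.05 with a limma adjusted p of 0.0360, in a fit that called 1329 of 13765 genes.

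Among other genes of the pathway, C-type natriuretic peptide (Nppc) was at or below 0.27 TPM and Ostn, an alternative ligand of Npr3, at or below 0.29 TPM in every library. Of 4 tested genes that can degrade or process the peptides, none was called against vehicle under either drug by edgeR (1.93% and 0.85% of all genes). Against non_failing 1 of 4 was called with TYA-018 and 2 of 4 with SGLT2i, beside 7.39% and 6.45% of all genes. Mme, which encodes neprilysin, rose in treated hearts against non_failing, by 0.52 (SE 0.14, edgeR adjusted p 0.0154) with TYA-018 and 0.53 (SE 0.14, adjusted p 0.0152) with SGLT2i on the log2 scale, from a level of 0.69 ± 0.12 TPM (SD, n = 8). HFpEF+Veh hearts held 0.93 ± 0.34 TPM (n = 8), as against 0.89 ± 0.15 with TYA-018 and 0.99 ± 0.30 with SGLT2i (n = 11 each), and were at 0.36 (SE 0.15) against non_failing with an edgeR adjusted p of 0.202. Each of these Mme calls held under 5 of 8 other settings. The peptidase Dpp4 fell in HFpEF+SGLT2i against non_failing by 0.996 (SE 0.27, edgeR adjusted p 0.0172), a call that was lost without non_failing V2502 (0.0680) and held under 6 of 8 other settings. In TYA-018 against non_failing Dpp4 was at -0.71 (SE 0.27, edgeR adjusted p 0.0976), and was called without V2523, at -0.70 with an adjusted p of 0.0241.

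The cGMP effectors, 12 genes that make, bind or break down cGMP or act below it, included 1 called gene, in comparisons in which 3.15%, 7.39% and 6.45% of all genes were called (HFpEF+Veh, TYA-018 and SGLT2i against non_failing). Rgs2, a regulator of G protein signalling that is activated by cGMP-dependent kinase, ranged from 5.17 to 9.85 TPM in non_failing and from 2.46 to 5.89 TPM in HFpEF+Veh. It fell by 0.90 on the log2 scale in HFpEF+Veh against non_failing (SE 0.17, edgeR adjusted p 0.00133), by 0.97 without V2523. It also fell in both drug groups against non_failing, by 0.56 (SE 0.15, edgeR adjusted p 0.0198) with TYA-018 and 0.52 (SE 0.15, adjusted p 0.0353) with SGLT2i. The first of these calls was lost without non_failing V2503 (0.0508) and the second without any of 7 libraries, 4 of non_failing (V2501, V2503, V2507 and V2508) and 3 of SGLT2i (V2566, V2572 and V2573), up to an adjusted p of 0.0840. Under other settings the first held in 8 of 8 and the second in 6 of 8. Against vehicle Rgs2 was at 0.33 (SE 0.16) with TYA-018 and 0.38 (SE 0.16) with SGLT2i, not called, with edgeR adjusted p of 0.260 and 0.363. The median log2 fold change of the list in HFpEF+Veh against non_failing was -0.13, beside 0.01 over all genes. The cGMP-dependent kinase Prkg1 and the phosphodiesterase Pde5a were not called in any comparison.

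No other proprotein convertase was called. Pcsk6 was expressed at a level like that of Furin, 12.6 ± 2.24 TPM in HFpEF+Veh (SD, n = 8), whereas Pcsk1 and Pcsk2 were at or below 0.068 TPM. The smallest p of the list belonged to Pcsk4 in HFpEF+SGLT2i against non_failing, at 0.68 (SE 0.22) with an edgeR adjusted p of 0.0533, and the next gene was Pcsk5 in TYA-018 against vehicle, at -0.30 (SE 0.14, adjusted p 0.262). The 6 genes listed around Nppa and Nppb on chromosome 4 included none called in any comparison. Their smallest p belonged to Plod1, at 0.17 (SE 0.08, edgeR adjusted p 0.293) in HFpEF+Veh against non_failing. In TYA-018 against vehicle, where Nppb was called, 3 of the 6 were above 0 and 3 below, with a median log2 fold change of -0.02, beside -0.01 over all genes.

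Genes of wall stress and the fetal gene program were set beside Nppb. In HFpEF+Veh against non_failing, 7 of 7 were above 0 with a median log2 fold change of 0.57, beside 0.01 over all genes, and 2 were called, beside 3.15% of all genes. Acta1, the skeletal actin of the fetal program, rose by 1.48 (SE 0.28, edgeR adjusted p 0.00141), from 61.8 ± 19.5 to 188 ± 35.7 TPM (SD, n = 8 each). Abra, an actin-binding protein of striated muscle, rose by 1.06 (SE 0.23, edgeR adjusted p 0.00633). Without V2523 the list had 3 called genes in this comparison, Xirp2 being the third. Against vehicle, 6 of 7 were below 0 with TYA-018 (median -0.27, beside -0.01 over all genes) and 7 of 7 with SGLT2i (median -0.26, beside 0.01), and none was called by edgeR. These comparisons share the vehicle hearts with that against non_failing. Abra was at -0.69 (SE 0.21) with TYA-018 with an edgeR adjusted p of 0.0779, and Acta1 at 0.03 (SE 0.26). Acta1 remained higher than in non_failing in both treated groups, by 1.52 (SE 0.27) and 1.44 (SE 0.27), with edgeR adjusted p of 0.000274 and 0.000531.

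Of 11 cardiac transcription factors, Tbx5, a T-box factor of the heart, was the only gene called against vehicle, where 1.93% (TYA-018) and 0.85% (SGLT2i) of all genes were called. It rose by 0.56 (SE 0.13, edgeR adjusted p 0.0204) with TYA-018 and 0.64 (SE 0.13, adjusted p 0.00612) with SGLT2i, from 2.18 ± 0.52 TPM (SD, n = 8) to 2.99 ± 0.31 and 3.19 ± 0.84 TPM (n = 11 each). Without V2523 the edgeR adjusted p was 0.0347 for TYA-018 and 0.0721 for SGLT2i, so the second call was lost, and the first was lost without V2530 (0.0590). Each held under 5 of 8 other settings. Mef2a was the 1 gene of the list called against non_failing under each drug, beside 7.39% and 6.45% of all genes. It fell by 0.21 (SE 0.06, edgeR adjusted p 0.0176) with TYA-018 and 0.18 (SE 0.06, adjusted p 0.0411) with SGLT2i. The first of these calls was lost without V2503 (0.0615), and the second held in 2 of 8 other settings and was lost without any of 9 libraries, V2502, V2503 and V2504 of non_failing and V2565, V2566, V2571, V2572, V2573 and V2575 of SGLT2i. Gata4, Nkx2-5 and Tead1 were not called in any comparison.

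How the members varied together was examined across the 38 libraries after subtracting group means. Of 21 pairs, 3 passed at a permutation p adjusted over the pairs. Npr1 and Npr2 rose and fell together (Pearson r = 0.75 and Spearman rho = 0.76, adjusted permutation p 0.00021 each, the smallest that 100000 draws can give over 21 pairs), with r of 0.67 to 0.91 within the 4 groups and 0.69 without the 2 libraries farthest from the median of Npr1. Furin ran against Npr1 (r = -0.51, rho = -0.47, adjusted permutation p 0.0158 and 0.0395, and r = -0.41 without the 2 libraries farthest from the median of Furin), but on log2(TPM + 1) it was r = -0.22 with an adjusted permutation p of 0.628. Nppb ran against Npr2 (r = -0.49, rho = -0.44, adjusted permutation p 0.0158 and 0.0398, and r = -0.39 without the 2 farthest libraries). Within groups the last relation was -0.89 in HFpEF+TYA-018 and -0.65 in HFpEF+SGLT2i, but -0.17 in non_failing and 0.43 in HFpEF+Veh, and the difference between groups was not tested. Corin and Furin passed by rank only (rho = 0.46, adjusted permutation p 0.0395, with r = 0.40 at 0.0917). On log2(TPM + 1) that pair passed by r (0.46, 0.0380) and not by rank (0.0744), and after regression on the median effective length of the library it passed by neither (adjusted permutation p 0.105 and 0.116). Nppa and Nppb did not pass (r = 0.25, rho = 0.22, adjusted permutation p 0.335 and 0.457, and r = 0.16 without the 2 farthest libraries).

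**Figure D4:**
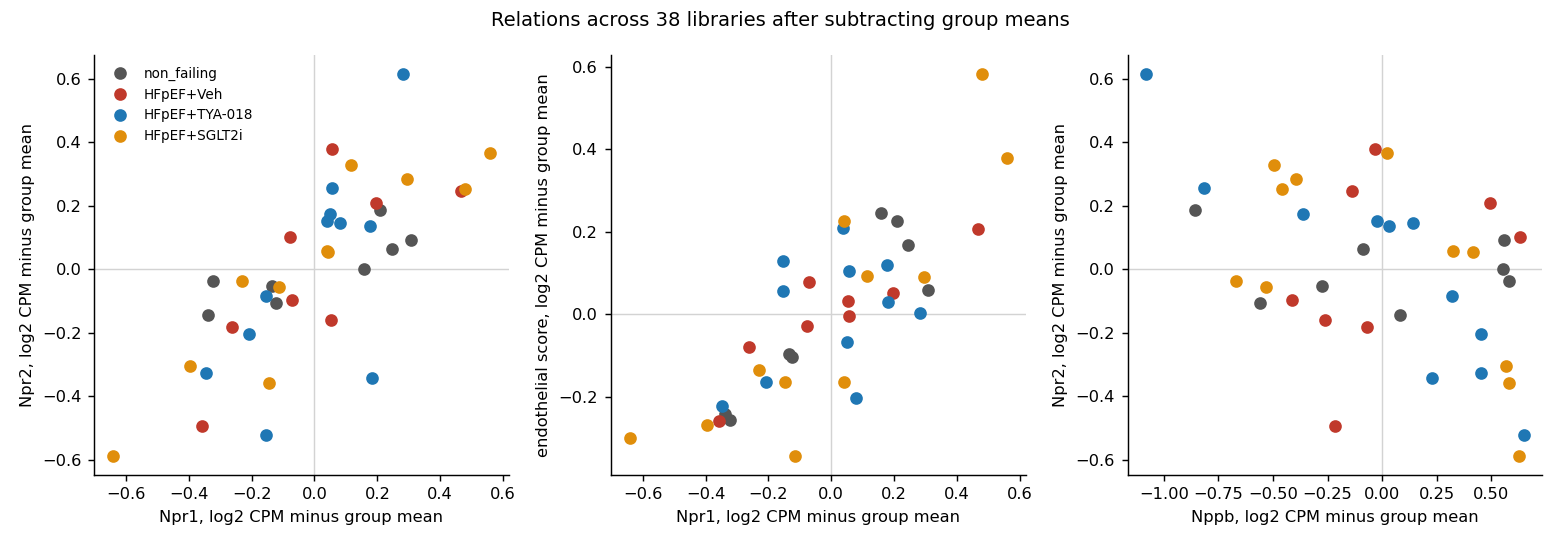
Log2 CPM minus the group mean in 38 libraries, coloured by group: Npr2 against Npr1 (left), the endothelial marker score against Npr1 (middle) and Npr2 against Nppb (right). The points rise in the first 2 panels (r = 0.75 and 0.79) and fall in the third (r = -0.49).

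Some members moved with properties of the libraries. The median effective transcript length of a library, between 1785 and 2355 bases, was related to Npr1 (r = -0.68), Npr2 (r = -0.68) and Furin (r = 0.68), each with an adjusted permutation p of 9.33e-05 over 14 pairs, which were chosen after the values were seen. Spearman rho was -0.71, -0.70 and 0.53, with adjusted permutation p of 7e-05, 7e-05 and 0.00266, and r without the 2 farthest libraries was -0.63, -0.62 and 0.54. Total counts were related to Npr1 (r = -0.47, rho = -0.44, adjusted permutation p 0.0290 and 0.0270, r = -0.38 without the 2 farthest) and to Npr2 (r = -0.50, rho = -0.59, adjusted permutation p 0.0100 and 0.00168, r = -0.49). After regression on the median effective length, Npr1 and Npr2 kept a relation of r = 0.54 (adjusted permutation p 0.00483), whereas Furin and Npr1 were at -0.09 (0.704) and Nppb and Npr2 at -0.39 (0.105). Nppb itself was related to neither library measure at the threshold (r = 0.32 and 0.27, adjusted permutation p 0.114 and 0.184).

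Each member was also set against the score of 1 chosen cell type, the mean log2 CPM of the markers of that type. Npr1 followed the endothelial score, built from Pecam1, Cdh5, Kdr, Tie1, Tek and Egfl7 (r = 0.79, rho = 0.73, adjusted permutation p 7e-05 each, the smallest possible over 7 pairs, and r = 0.75 without the 2 farthest libraries), with r of 0.37 to 0.91 within groups, the lowest being HFpEF+TYA-018. After regression on the median effective length this relation was r = 0.76. Npr3 followed the endocardial score of Cytl1, Plvap and Vwf (r = 0.53, rho = 0.56, adjusted permutation p 0.00231 and 0.00150, r = 0.46 without the 2 farthest), and was at r = 0.73 after the same regression. Within groups its r was 0.20 to 0.82, the lowest being HFpEF+Veh. On log2(TPM + 1) the relation of Npr3 was r = 0.37 with an adjusted permutation p of 0.0742, and passed by rank only (rho = 0.44, 0.0231). The other 5 pairs did not pass. Nppa and Nppb had r of 0.09 and 0.04 with the atrial score, Corin 0.10 with the ventricular cardiomyocyte score, Furin -0.23 with the endothelial score and Npr2 -0.31 with the fibroblast score, with adjusted permutation p of r between 0.208 and 0.822.

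Marker sums, given as a description without a test, were set beside Nppb. Fibroblast markers summed to 336 ± 111 TPM in HFpEF+Veh (SD, n = 8, range 245 to 582) against 238 ± 36.4 in non_failing (n = 8, range 166 to 275), 254 ± 40.7 with TYA-018 (n = 11, range 211 to 322) and 255 ± 28.4 with SGLT2i (n = 11, range 197 to 297), and 339.7 ± 119.5 without V2523. Of the 6 fibroblast markers, 2 were called in HFpEF+Veh against non_failing, both higher (Lum and Pdgfra), where 3.15% of all genes were called, and none against vehicle under either drug. Against non_failing, Lum was called higher with TYA-018 (0.54, edgeR adjusted p 0.0268, lost without V2501, V2502, V2504, V2548 or V2570), and with SGLT2i Pdgfra was called higher (0.35, 0.00211) and Tcf21 lower (-0.43, 0.0324, lost without V2502, V2503, V2504, V2566 or V2571). The Lum call held in 7 of 8 other settings and the Tcf21 call in 5 of 8. Endothelial sums averaged 426 ± 53.5 TPM in HFpEF+Veh (n = 8, 438 ± 42.7 without V2523), 401 ± 81.8 in non_failing (n = 8), 349 ± 43.8 with TYA-018 and 393 ± 112 with SGLT2i (n = 11 each). Of 8 ventricular cardiomyocyte markers, 4 were called lower in HFpEF+Veh against non_failing, 1 in TYA-018 against non_failing (7.39% of all genes) and 4 in SGLT2i against non_failing (6.45%), with none called against vehicle. Their sums averaged 28203 TPM in non_failing, 23330 TPM in HFpEF+Veh, 23473 TPM with TYA-018 and 22542 TPM with SGLT2i. Endocardial sums averaged 42.3 ± 13.8 TPM in HFpEF+Veh against 32.1 ± 5.22, 31.6 ± 8.56 and 33.8 ± 20.8 in non_failing, TYA-018 and SGLT2i, and macrophage sums 106 ± 23.0 against 81.0 ± 14.2, 90.2 ± 26.1 and 92.3 ± 17.1 TPM, with no marker of either list called. Of the 6 pericyte and smooth muscle markers, 3 were above 0 and 3 below in HFpEF+Veh against non_failing. Abcc9 (-0.46, edgeR adjusted p 0.0251) and Rgs5 (-0.36, 0.0313) were called lower, each in 32 of 38 fits that left out 1 library. Abcc9 was lost without V2501, V2503, V2504, V2508, V2528 or V2530 and held in 6 of 8 other settings. Rgs5 was lost without V2503, V2507, V2508, V2509, V2526 or V2530 and held in 4 of 8. Acta2 was at 0.71 (edgeR adjusted p 0.0770) and was called higher without V2523 (0.77, 0.0467). In TYA-018 against non_failing Acta2 was called higher (0.67, 0.0438, in 29 of 38 such fits) and Rgs5 lower (-0.33, 0.0171, in 37 of 38). None of the 6 pericyte and smooth muscle markers was called against vehicle. The part of these markers in the Nppb difference was not tested. Atrial sums stayed between 12.4 and 13.9 TPM in the group means, of which Kcnj3 was the largest share. Of the 5 atrial markers tested, 3 were above 0 and 2 below in HFpEF+Veh against non_failing, with a median of 0.14, beside 0.01 over all genes. In that comparison 2 were called, both higher, beside 3.15% of all genes. Dkk3 rose by 1.44 (SE 0.30, edgeR adjusted p 0.00444), from 0.48 ± 0.15 to 1.40 ± 1.11 TPM (SD, n = 8 each). Bmp10, which stayed at or below 0.26 TPM, was called higher than in non_failing in HFpEF+Veh (adjusted p 0.0252, lost without V2503, V2504, V2508 or V2523), TYA-018 (0.00359) and SGLT2i (0.000240). In the same order these Bmp10 calls held in 4, 6 and 7 of 7 other settings. Against non_failing, Bmp10 was the 1 atrial marker called under each drug, beside 7.39% (TYA-018) and 6.45% (SGLT2i) of all genes.

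As a description, the genes whose group-centred log2 CPM was most like each member over the 38 libraries were listed, out of 11122 genes with an average log2 CPM of at least 1. For Nppa these were Myh7, the slow myosin heavy chain of the fetal program (r = 0.67), Ptms (0.63) and Dpysl3 (0.62), and for Nppb Flnc, a filamin of muscle (0.74), Tnfrsf12a, the receptor for TWEAK (0.72), and Dusp27 (0.70). Tnfrsf12a was the one of these that was also called lower with TYA-018 than with vehicle, at -0.78 with an edgeR adjusted p of 0.0252. Npr1 was most like the endothelial genes Egfl7 (0.90) and Acvrl1 (0.89), with Tmem44 (0.89) between them, and Npr2 most like Agrn (0.96), Xpo6 (0.96) and Rps6kb2 (0.95). Corin was most like Prepl (0.74), Tns1 (0.70) and Sik3 (0.70), Furin like Fam160a1 (0.82), Mgea5 (0.77) and Ago2 (0.76), and Npr3 like Smoc1 (0.75), Cgnl1 (0.68) and Plvap (0.66). The libraries behind these values also differ in depth and in median effective length.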

How the data were processed

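RNA-seq of 38 left ventricles was analysed. Per the methods of the study, the authors trimmed reads with fastp, quantified GRCm38 transcripts with salmon (version 1.6.0 in the submitters' processing notes, which name a human build) and used tximport to reach gene level. The authors deposited expected counts (estimated reads per gene), TPM scaled per library, and an effective length per gene in bases. The labels and the methods differ on sex and on read length and number, and no such variable entered a test. The kit is stranded. Unmapped columns numbered 0.

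Expected counts were rounded, filtered with filterByExpr, scaled by TMM and tested with the two-sided quasi-likelihood test of edgeR 4.0.16 (R 4.3.3) in 1 model with 4 groups. P-values were adjusted by Benjamini-Hochberg over 13765 genes, and calls were made below an adjusted p of 0.05. Each SE was taken as the log2 fold change over the square root of its F statistic. Hearts in a direction were counted against the mean log2 CPM of the other group. Lengths were tested with limma 3.58.1. Relations used log2 CPM (prior count 2) minus the group mean, with two-sided permutation tests of 100000 draws within groups. DESeq2 1.42.0, other scalings and filters, limma on log2(TPM + 1) and log2(TPM + 0.1), and leaving out libraries were the alternatives. The test was tried on simulated data. Coordinates are GENCODE M21 on GRCm38 and promoter sequences RefSeq GRCm38.p6, in which all 7 members matched by symbol.

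The named genes are the 7 members, the 3 genes most like each member, and from the lists of pathway genes those called, or otherwise the 2 with the smallest p, with a few others named for their role. Some items are not reported here. The members and lists were chosen with earlier results of these data known. Libraries are separate mice, so p-values reflect the spread between animals.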

Additional observations from a re-analysis of the deposited data

How the results depend on the processing

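The call of Nppb in HFpEF+TYA-018 against HFpEF+Veh, 1 of 7 members, kept its direction under every setting tried, with log2 fold changes from -1.04 to -0.86 over 8 alternatives (edgeR, DESeq2 or limma adjusted p 0.00555 to 0.0580) and from -0.93 to -0.75 over 38 fits that left out 1 library (adjusted p 0.0196 to 0.0778, called in 34). The number of members called became 0 with only the 2 groups in the fit (Nppb adjusted p 0.0565) and without V2523 and V2532 together (0.0580), the latter chosen after seeing the data, and ran from 0 to 1 over the leave-one-out fits. In the other 5 comparisons it stayed at 0 in all 46 alternatives. Some of these fits called no gene at all, such as limma on log2(TPM + 1) in SGLT2i against vehicle. For effective length, 1 member was called without V2523 (TYA-018 against vehicle) and 1 without centring (Corin, TYA-018 against SGLT2i, at -0.078 with a limma adjusted p of 0.0451, against 0.0071 with centring), where the calls over all genes went from 173 to 1329 and from 102 to 1451. Without centring, those of TYA-018 against vehicle went from 173 to 0. The cause was not tested.

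The called Nppb difference did not reverse its sign. For Furin, HFpEF+Veh against non_failing was 0.014 with library size alone and 0.035 and 0.037 with limma at a pseudocount of 1 and 0.1, and TYA-018 against vehicle was -0.12, -0.074 and -0.078 there and -0.0026 with no filter. Library size alone moved the median of all genes by -0.14 in that comparison. Npr2 in SGLT2i against vehicle was -0.0088 with a length offset, -0.079 and -0.082 with limma and -0.031 without V2523 and V2532. Npr3 in TYA-018 against SGLT2i was -0.0077 with limma at 0.1, and Npr1 in TYA-018 against non_failing -0.015 with library size alone. Leaving out 1 library gave ranges across 0 against vehicle for TYA-018 of -0.16 to 0.14 (Nppa), -0.047 to 0.061 (Furin) and -0.12 to 0.012 (Npr2), for SGLT2i of -0.078 to 0.067 (Npr1), and against non_failing of -0.0051 to 0.12 (Corin, TYA-018), -0.0037 to 0.091 (Npr1, TYA-018), -0.0074 to 0.065 (Furin, SGLT2i) and -0.043 to 0.15 (Npr3, SGLT2i). Of the correlations, Nppa and Npr3, Nppb and Npr3, Npr2 and Npr3, and Furin and the endothelial score became 0.022, 0.033, 0.022 and 0.12 on log2(TPM + 1). After regression on median effective length, Nppb and Furin became -0.14, Furin and Npr2 0.094 (from -0.41, and -0.47 with an adjusted permutation p of 0.0329 without V2523), Npr1 and Npr3 0.29, Npr2 and Npr3 0.34, and Furin and the endothelial score 0.075.

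Calls over all genes moved by more than 1.5 times: 433 in HFpEF+Veh against non_failing became 916 without V2523 and V2532, 266 in TYA-018 against vehicle became 38 with limma at 1, 167 without V2530 and 1096 with library size alone, 117 in SGLT2i against vehicle became 2 without V2523, 0 with limma at 1 and 457 with no filter, 0 between the drugs became 187 with DESeq2, and 1017 and 888 against non_failing became 612 and 521 with limma at 1. No paired analysis was possible because mouse numbers differ in every group.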
